A study of Drosophila melanogaster with 4 samples.

Results

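Isolated narrow sites of H3K4me1 were examined: short stretches of marked chromatin with no other marked stretch nearby, found in both replicates. H3K4me1 is histone H3 carrying a single methyl group on lysine 4, and it was mapped by chromatin immunoprecipitation and sequencing (ChIP-seq) in nuclei of third-instar larvae of Drosophila melanogaster. All samples were wild-type Oregon-R: 2 ChIP samples (replicates 1 and 2, made with 1 lot of one antibody) and 2 input samples, each input serving as background for the ChIP sample of the same number. Each ChIP sample had a list of enriched regions, and another, called the combined list, covered the series as a whole. Read depth cannot be told from any list. Nothing in the labels says that the replicates came from separate cultures, so the spread between them may be technical.

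The sites were chosen from the combined list by width, place, isolation and overlap. A site was under 3000 bases wide, lay on X, 2L, 2R, 3L, 3R or 4, and was at least 5000 bases from the next enriched region on each side. It also shared at least 1 base with an enriched region of each replicate. Of 9501 enriched regions in the combined list, 155 (1.63%, 95% Wilson interval 1.40 to 1.91, which covers counting error only) met all of these. Widths, distances and overlap therefore describe how the sites were picked. Since all 3 lists took part in the choice, no test was made on any of these measures. Larvae hold many tissues, so a site marked in few cells and a site marked weakly in many cannot be told apart.

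In flies most H3K4me1 is laid down by the methyltransferase Trithorax-related, and the demethylase Lsd1, encoded by Su(var)3-3, removes it. The mark is found over enhancers, sequences that raise transcription of a gene from a distance, and beside the start sites of active genes, where H3K4me3 takes the centre. An enhancer with H3K4me1 may be active or only poised; acetylation of lysine 27 of the same histone, by the fly CBP homologue Nejire, usually goes with activity. In late larvae the imaginal discs, which will form the adult appendages, use many such enhancers of developmental genes. Gene annotation and sequence of the same genome release were not used here, so sites are given by coordinates of FlyBase release 5 alone and none is assigned to a gene.

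Narrow regions were common in these larvae, and most of them, like most regions of any width, had a neighbour nearer than 5000 bases. Of the 9501 regions, 5010 were narrow and on the 6 chromosomes, and 601 of these (12.0%) stood at least 5000 bases from both neighbours. Isolated regions of any width on these chromosomes numbered 876 (9.22% of the 9501). Both replicates met 155 of the 601 (25.8%, Wilson interval 22.5 to 29.4). Replicate 2 alone met 244, replicate 1 alone met 74, and neither met 128. Asking for overlap with replicate 2 alone would have given 399 sites, and with replicate 1 alone 229. Among narrow regions with a nearer neighbour, 1380 of 4409 (31.3%, interval 29.9 to 32.7) were met by both. Isolated regions of 3000 bases or more were met by both in 257 of 275 cases (93.5%). The 155 sites spanned 347 kb, or 0.778% of the enriched bases on these chromosomes.

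Each site appeared in each replicate as a single region, and all 3 lists placed it at nearly the same point. All 155 sites had exactly 1 partner region in replicate 1 and 1 in replicate 2, and the partners shared bases with each other in all 155 cases. The median distance between the midpoint of a site and that of its partner was 95 bases in replicate 1 and 49 bases in replicate 2, small against the median site width of 2125 bases. The midpoints of the partners lay a median of 130.5 bases apart. The stretch common to all 3 lists had a median length of 1672 bases and was at least 1000 bases long in 150 of the 155 sites. Regions of the replicates covered a median of 85.8% of a site in replicate 1 and 92.9% in replicate 2 (mean 89.4% ± 5.02, SD, n = 2). Overlap with each replicate was asked for by the rule, so a stretch shared by the lists follows in part from selection. For 1331 narrow regions with a nearer neighbour and 1 partner in each replicate, median coverage was 86.6% (replicate 1) and 93.5% (replicate 2). The edges of the sites differed between the lists.

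**Figure D1:**
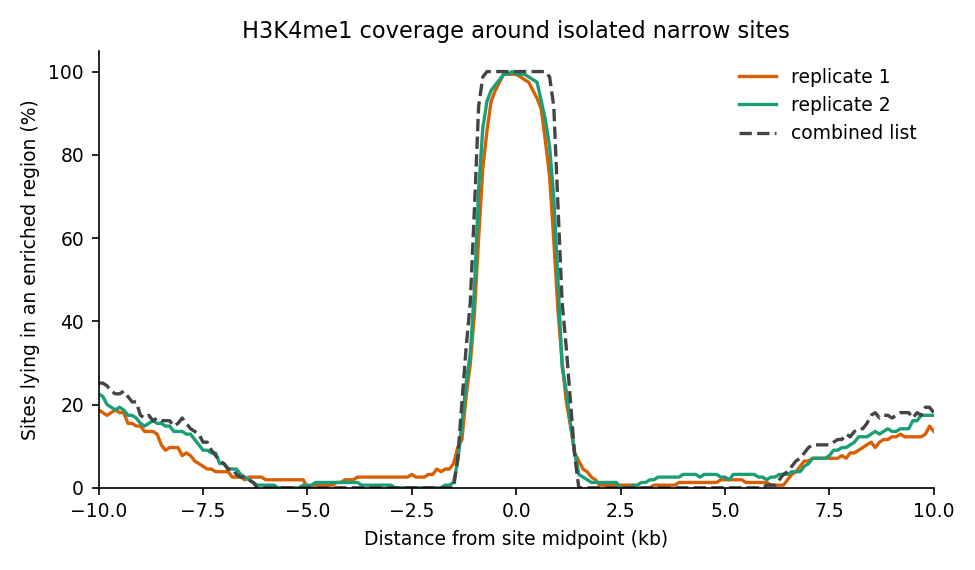
Share of the 155 sites (vertical axis, percent) that lay in an enriched region at each distance from the site midpoint (horizontal axis, kb), for replicate 1, replicate 2 and the combined list. Both replicates reach 99.4% at the midpoint and stay at or under 3.23% between 2 and 5 kb on either side; the combined list is at 0 there by the rule.

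The sites were also narrow and isolated in the replicates, although the rule asked only for overlap there. The partner was itself under 3000 bases wide and at least 5000 bases from its neighbours in 141 sites (91.0%, Wilson interval 85.4 to 94.5) in replicate 1. The same held for 139 sites (89.7%, interval 83.9 to 93.5) in replicate 2, giving a mean of 90.3% ± 0.912 (SD, n = 2). The share rests on the list that the rule starts from: of the narrow isolated regions of replicate 1 that replicate 2 met, 39.1% had such a partner in replicate 2, and starting from replicate 2 the share in replicate 1 was 53.3%. The partner was narrow and isolated in both replicates for 125 sites, and no site failed in both (0 of 155, Wilson interval 0 to 2.42%). Median partner width was 1916 bases in replicate 1 and 1986 bases in replicate 2. A further region of the replicate lay within 5000 bases of the site in 11 cases in replicate 1 and 15 in replicate 2. From 2 to 5 kb away from the midpoint, where the combined list holds nothing by the rule, regions of a replicate covered 0 to 3.23% of the sites, with means of 1.44% in replicate 1 and 1.35% in replicate 2. The sites were chosen from the combined list by overlap with both replicate lists, so this is a description and not independent agreement.

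The shortest common stretch was found at 3R:9925997-9927535 (1539 bases), singled out after its values were seen. Replicate 1 covered 16.6% of it and replicate 2 covered 95%, and the midpoints of the partners were 1272 bases apart. All 3 lists had 212 bases in common there. Only 3 sites were covered to under 50% in replicate 1, and 2 in replicate 2.

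The sites had low scores for the most part, with a minority of higher ones. Each region carries 1 deposited score from the authors. No file states its scale; it was above 0 in each region named enriched and below 0 in each named depleted, and whether a higher score marks stronger enrichment was not tested. Scores are therefore also given as percentiles among all enriched regions of the same list, which numbered 9501 in the combined list (median width 2778 bases), 7177 in replicate 1 (3270) and 9903 in replicate 2 (2599). Percentiles depend on what else a list holds. Those of different lists are given side by side, and a gap between them is not read as a difference in enrichment. In the combined list the site scores ran from 0.0468 to 0.892 with a median of 0.395, against a median of 0.468 for all 9501 regions. The median site stood at percentile 38.5, and the quartiles at 19.9 and 55.8. Of the 155, 103 (66.5%) lay in the lower 50% of the combined list and 9 (5.81%) in the highest 25%. None reached the highest 10% (0 of 155, Wilson interval 0 to 2.42%). Within the lists of the replicates the partners had a median percentile of 21.6 in replicate 1 and 26.9 in replicate 2. The partner was in the lower 50% of its list for 133 sites in replicate 1 and 114 in replicate 2. Score went with width over whole lists, with a Spearman rho of 0.79 in the combined list, 0.82 in replicate 1 and 0.79 in replicate 2, and the rule admits narrow regions alone. Among the 601 isolated narrow regions the rho was 0.22.

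The sites scored somewhat lower at the median than narrow regions with a near neighbour that both replicates also met. The median score was 0.395 for the sites, at percentile 38.5, against 0.440 for 1380 near-neighbour regions, at percentile 46.1, and the median width was 2125 bases for the sites and 2271 for the others. Partners were narrow nearly always for the sites, in 96.1% of cases in replicate 1 and 98.7% in replicate 2. Among the 1331 near-neighbour regions with 1 partner in each replicate the figures were 75.7% in replicate 1 and 95.5% in replicate 2. Midpoints differed from the partner by a median of 95 bases for the sites and 174 bases for the others in replicate 1, and by 49 bases for the sites and 57 for the others in replicate 2. Coverage was much the same, with medians of 85.8% for the sites and 86.6% for the others in replicate 1, and 92.9% for the sites and 93.5% for the others in replicate 2. These differences were not tested, because the lists that chose both groups supply all of the values.

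Wider isolated narrow regions were more often met by both replicates than narrower ones. Only 1 of 243 isolated regions under 1500 bases (0.412%, Wilson interval 0.0727 to 2.29) was met by both replicates. The share was 24.6% (49 of 199) from 1500 to under 2000 bases, 64.8% (59 of 91) from 2000 to under 2500 and 67.6% (46 of 68) from 2500 to under 3000. The narrowest region of either replicate list was 1301 bases wide, and the combined list reached down to 1001. None of the 154 isolated regions under 1301 bases was met by both, and 90 of them were met by neither. Along the same bands the median percentile of the sites was 15.8 (1500 to under 2000 bases), 46.9 (2000 to under 2500) and 53.9 (2500 to under 3000). The single site under 1500 bases, 3L:12329716-12331193 (1478 bases), had a score of 0.130, at percentile 1.84. Its partners stood at percentile 2.08 in replicate 1 and 7.26 in replicate 2.

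**Figure D2:**
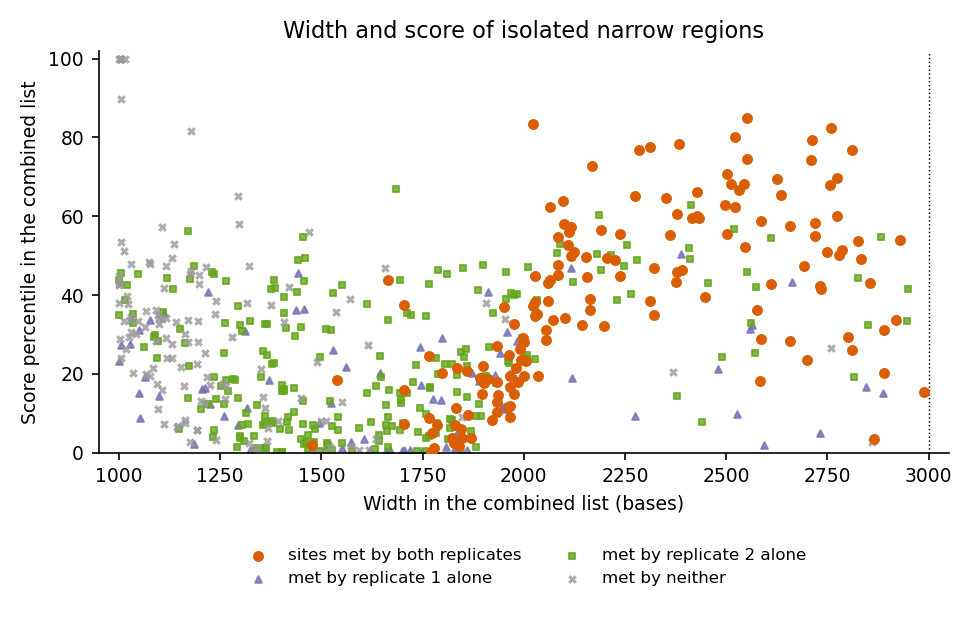
Width (horizontal axis, bases) and score percentile in the combined list (vertical axis) of the 601 isolated narrow regions, marked by the replicates that met them; the dotted line is the limit of 3000 bases. The 155 sites met by both replicates lie between 1478 and 2988 bases and no higher than percentile 84.9, and the 6 regions above that are 1001 to 1015 bases wide and met by neither replicate.

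Scores of the sites overlapped those of the other isolated narrow regions. The sites had a median score of 0.395, against 0.285 for regions met by replicate 1 alone, 0.314 for those met by replicate 2 alone and 0.353 for those met by neither. The highest site score was 0.892, and the 6 isolated regions that scored above it were 1001 to 1015 bases wide and were met by neither replicate. Median widths were 2125 bases for the sites, 1702 for regions met by replicate 1 alone, 1584 for those met by replicate 2 alone and 1172 for those met by neither.

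The 10 highest-scoring sites of the combined list took places 1 to 23 by score among the 155 in replicate 2 and places 1 to 127 in replicate 1; 6 of them were among the 10 highest in replicate 2, and 2 in replicate 1. Their scores ran from 0.748 to 0.892 in the combined list. Partner percentiles in replicate 2 spanned 60.3 to 89.7, and those in replicate 1 spanned 4.90 to 93.1. Widths ran from 2022 to 2811 bases. Among these 10, 3 lay on X, 2 on 2L, 2 on 3R and 1 each on 2R, 3L and 4, so that each of the 6 chromosomes had at least 1.

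The first was 3L:21308827-21311378, 2552 bases wide. Its score was 0.892 in the combined list, with 0.746 in replicate 1 and 1.07 in replicate 2, at percentiles 58.2 and 86.0 of those lists. It was covered to 96.7% in replicate 1 and 98.7% in replicate 2, and its neighbours lay 9.10 and 16.5 kb away. The stretch common to all 3 lists was 95.7% of it, against a median of 78.8% over the 155 sites.

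The second, 4:1311673-1313694 (2022 bases), was the highest-ranked site in replicate 1. Its score was 0.868 in the combined list, 1.16 in replicate 1 (percentile 93.1) and 0.886 in replicate 2 (percentile 73.9). It was the only site in the highest 25% of replicate 1. Both partners were shorter than the site, at 1609 bases in replicate 1 and 1442 bases in replicate 2.

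The best sites of 2R, 3R, X and 2L took places 11 to 85 by score among the 155 in replicate 1 and places 2 to 8 in replicate 2. On 2R it was 2R:10930129-10932886 (score 0.852), at percentile 39.8 in replicate 1 and 87.7 in replicate 2. On 3R it was 3R:310386-312906 (0.819), at percentile 18.2 in replicate 1 and 88.3 in replicate 2. On X it was X:14474632-14477343 (0.809), at percentile 60.5 in replicate 1 and 78.4 in replicate 2. On 2L it was 2L:17410167-17412549 (0.796), at percentile 51.0 in replicate 1 and 76.6 in replicate 2.

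The other 4 of the 10 differed among themselves in the same measure. The site 3R:11612070-11614382 (0.786) stood at percentile 4.90 in replicate 1 and 89.7 in replicate 2, and by score was in place 127 of 155 in replicate 1 and first in replicate 2. The site X:16418806-16421616 (0.778) was in place 2 in replicate 1 and 23 in replicate 2, at percentile 72.1 in replicate 1 and 60.3 in replicate 2. The sites X:5487332-5489615 (0.778) and 2L:16908284-16910834 (0.748) were at percentiles 51.0 and 57.7 in replicate 1, and at 64.1 and 71.1 in replicate 2.

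The replicates ranked the sites only loosely alike, while overlap of both with each site was asked for by the rule. Across the 155 sites the Spearman rho between partner scores was 0.32 and between partner widths 0.21, as a description over regions that come from the same pair of samples. Among the 77 sites narrower than the median the rho of the scores was 0.08, and among the other 78 it was 0.01. The width used for this split comes from the combined list, which covers the series as a whole by a method not stated. The combined score had a rho of 0.62 with replicate 1 and 0.83 with replicate 2. Because the combined list covers the series as a whole, its scores are not taken as independent of either replicate. Within the sites, score still went with width, with a rho of 0.65 in the combined list, 0.62 in replicate 1 and 0.69 in replicate 2. The 1331 narrow regions with a near neighbour and 1 partner in each replicate gave a rho of 0.16 for scores and 0.01 for widths.

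Differences in rank were often large. With the 155 sites ordered by score within each replicate, the place of a site differed by more than 20 in 100 sites (64.5%), by more than 50 in 47 and by more than 100 in 12. The widest differences, chosen after their values were seen, were at 2R:20298968-20301319, in place 145 in replicate 1 and 10 in replicate 2, and at 2L:8618611-8620695, in place 5 in replicate 1 and 126 in replicate 2. In 96 sites (61.9%) all 3 lists gave a score in their lower 50%, and in 12 (7.74%) all 3 gave one in their upper 50%. These shares were not computed for other regions, so whether they are particular to the sites was not tested.

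**Figure D3:**
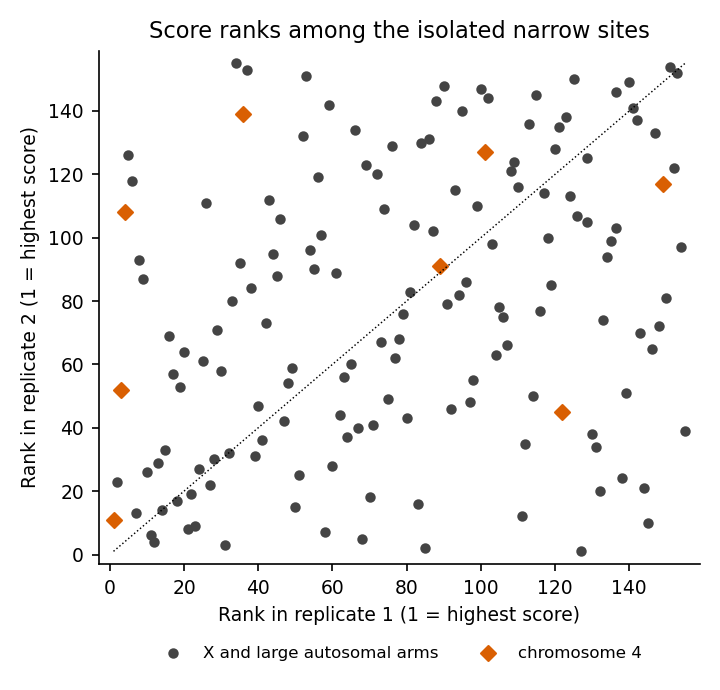
Rank by score of each of the 155 sites among themselves in replicate 1 (horizontal axis) and replicate 2 (vertical axis), where 1 is the highest score, with chromosome 4 marked and a dotted line where both are equal. Points scatter widely about the line, and 47 of 155 lie more than 50 places from it.

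The 12 sites in the upper 50% of all 3 lists included 7 of the 10 highest-scoring sites. By chromosome, the 12 were 5 of the 17 sites on X, 2 of 32 on 2L and 0 of 26 on 2R. The rest were 2 of 37 on 3L, 2 of 35 on 3R and 1 of 8 on chromosome 4. The highest-scoring one outside the 10 was 3R:14582211-14584983, with a score of 0.686 in the combined list, 0.700 in replicate 1 and 0.803 in replicate 2.

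Many sites stood well beyond the limit of isolation. The distance to the nearer neighbour had a median of 9298 bases, with quartiles at 6592.5 and 16900.5, and that to the farther neighbour had a median of 28395 bases. The nearer neighbour was at least 10 kb away from 75 sites (48.4%), at least 20 kb from 29 (18.7%) and at least 50 kb from 10 (6.45%). The clear sequence on both sides summed to a median of 41.9 kb and reached 301 kb. In 55 sites the farther neighbour was at least 3 times as far as the nearer one. Among all 9460 gaps between enriched regions on these chromosomes the median was 1585 bases, and 26.3% reached 5000.

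Scores showed little relation to isolation among the sites. The rho between the combined score and the distance to the nearer neighbour was 0.03. The 13 sites above percentile 70 all had a neighbour within 16.9 kb. The upper quartile of that distance over all 155 sites was close to this, at 16900.5 bases. The median percentile was 36.1 for the 80 sites with a neighbour 5 to 10 kb away, 40.6 for 46 sites at 10 to 20 kb, 39.0 for 19 at 20 to 50 kb and 41.6 for 10 beyond. Being met by both replicates did not change steadily with distance either, at 24.6% of 325 isolated narrow regions, 27.2% of 169, 24.1% of 79 and 35.7% of 28 in the same bands. The Wilson interval of the last, 20.7 to 54.2%, holds the other 3 values.

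**Figure D4:**
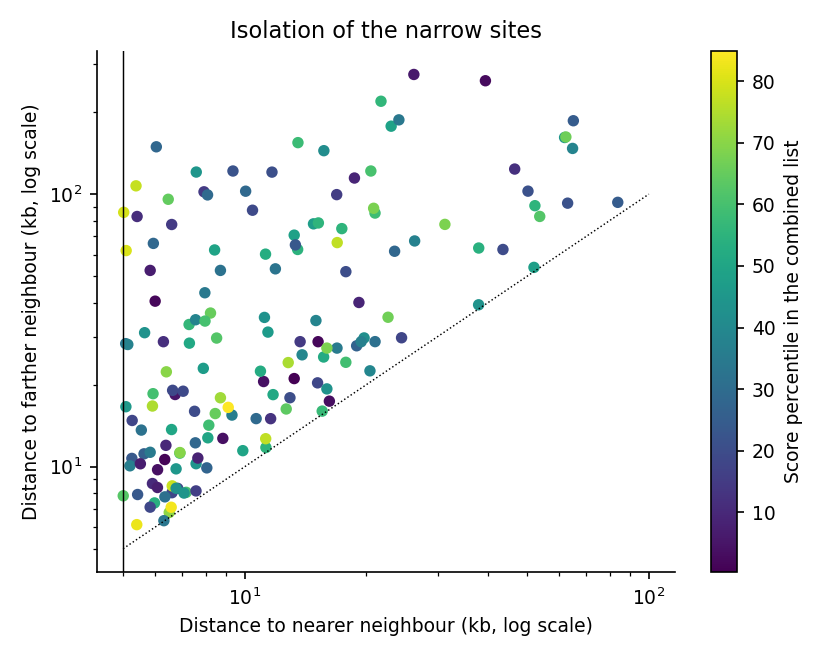
Distance of each of the 155 sites to its nearer (horizontal axis, kb, log scale) and farther neighbour (vertical axis, kb, log scale), coloured by score percentile in the combined list; the vertical line is the limit of 5 kb and the dotted line marks equal distances. The 13 sites above percentile 70 all have their nearer neighbour within 16.9 kb, close to the upper quartile over all 155 sites (16900.5 bases). The 10 sites beyond 50 kb on the horizontal axis lie between percentiles 21.4 and 66.2.

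The 10 most isolated sites had 50.2 to 83.8 kb free on their nearer side. They were of ordinary width, 1766 to 2428 bases, and their scores ran from 0.317 to 0.643. The most isolated was X:3465727-3467689 (1963 bases, score 0.333), with 83.8 kb free on one side and 93.3 kb on the other. Its partners stood at percentile 4.10 in replicate 1 and 19.3 in replicate 2, and covered 92.2% and 95.9% of it. A low score went here with a close match in extent.

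Next came 2L:22360909-22362674 (65.0 kb) and 2R:1181754-1183782 (64.7 kb), which lie toward the centromere ends of their arms. The first had a score of 0.333, with 0.555 in replicate 1 and 0.269 in replicate 2. The second had a score of 0.394, with 0.407 in replicate 1 and 0.459 in replicate 2. On 3L there were 4 of the 10: 3L:11919569-11921404 (62.9 kb), 3L:2980652-2982890 (52.2 kb), 3L:10454419-10456503 (52.0 kb) and 3L:12895447-12897427 (50.2 kb). The last was at percentile 38.2 in replicate 1 and 0.525 in replicate 2, the lowest rank of any site in that list.

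The remaining 3 were 4:1117636-1120063 (62.3 kb), 3R:6782484-6784512 (61.9 kb) and 2L:10142534-10144597 (53.7 kb). The site on 2L had scores of 0.596 in the combined list, 0.531 in replicate 1 and 0.644 in replicate 2. In the replicate 2 list its partner had another enriched region 5871 bases away that the combined list does not have. The site on chromosome 4 had a partner of 3097 bases in replicate 1, with a neighbour 7073 bases away in that list, and one of 1971 bases in replicate 2.

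The regions flanking the sites were mostly narrow, as were most regions on these chromosomes. Of 310 flanking regions, 191 (61.6%) were under 3000 bases, against 52.9% of all 9466 regions on these chromosomes, and 29 (9.35%) were 10 kb or wider, against 11.0%. Both flanks were under 3000 bases for 59 sites. A broad region of at least 10 kb flanked 27 sites. The flank scored above its site in 173 of 310 cases, and 42 sites (27.1%) scored above both flanks. Where sites followed each other directly (11 pairs), each was counted as a flank of the other and was narrow by the rule. The shares include these flanks and were not tested.

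Some sites followed each other directly. Of 149 pairs of successive sites on a chromosome, 11 had no other enriched region between them, and 19 sites belonged to 8 such runs. The runs were 6 pairs, 1 run of 3 on X and 1 run of 4 on chromosome 4. The run on X joined X:5472570-5474666, X:5487332-5489615 and X:5500883-5503507, with 12665 and 11267 bases between them and scores of 0.614, 0.778 and 0.684, all in the upper 50% of the combined list. Successive sites lay a median of 467 kb apart.

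All chromosomes held sites, X the fewest per Mb and chromosome 4 the most. Counts were 17 on X, 32 on 2L, 26 on 2R, 37 on 3L, 35 on 3R and 8 on the small chromosome 4. That is 0.758 sites per Mb for X (exact Poisson interval 0.442 to 1.21), 1.39 for 2L, 1.23 for 2R, 1.51 for 3L and 1.25 for 3R. Chromosome 4 had 5.92 (interval 2.55 to 11.7), above the 1.23 (interval 1.04 to 1.45) of the 5 large arms pooled. The intervals cover counting error only. Among the isolated narrow regions, both replicates met 17 of 100 on X, 32 of 122 on 2L, 26 of 104 on 2R, 37 of 115 on 3L, 35 of 141 on 3R and 8 of 19 on chromosome 4 (42.1%, Wilson interval 23.1 to 63.7).

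The order of the chromosomes depended on the list that the rule started from. With the list of replicate 1 in place of the combined list, chromosome 4 had 7 sites (5.18 per Mb) and the large arms 3.79 per Mb, a ratio of 1.37. With the list of replicate 2 it had 12 sites (8.88 per Mb) and the large arms 2.72 per Mb, a ratio of 3.26, and in the combined list the ratio was 4.79. Chromosome 4 was above each large arm in all 3 cases. X had the lowest density with replicate 1 (2.68 per Mb) and in the combined list, whereas with replicate 2 it had 2.27 per Mb and 2R had 1.70.

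**Figure D5:**
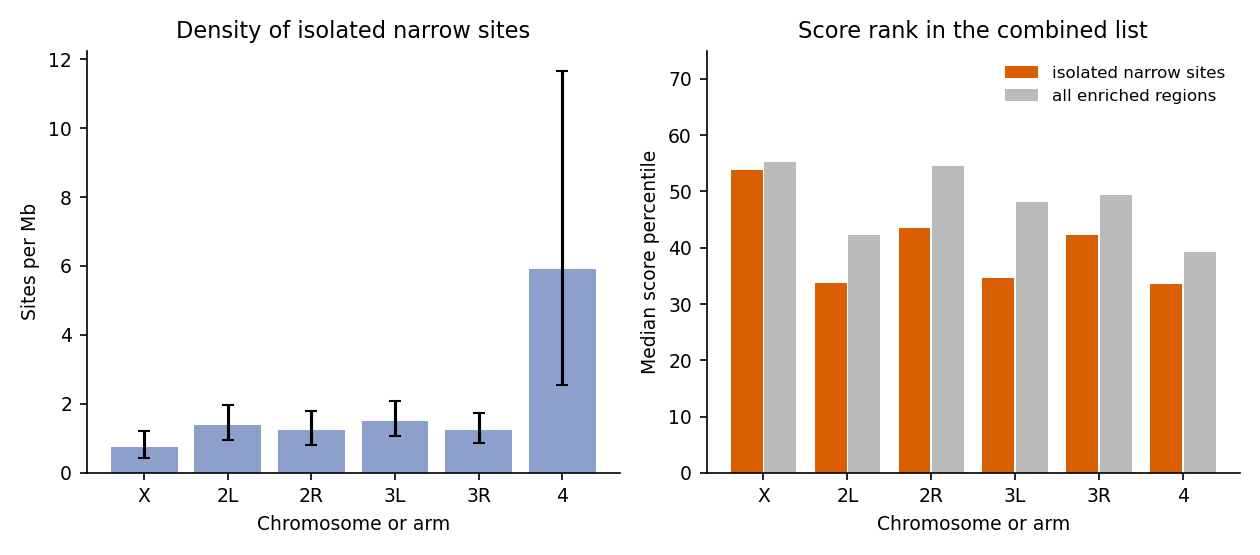
Left, sites per Mb on each chromosome or arm, with exact Poisson intervals of 95% as error bars. Right, median score percentile in the combined list of the isolated narrow sites and of all enriched regions. Chromosome 4 has 5.92 sites per Mb from 8 sites, and on X the sites stand at percentile 53.9, against 55.3 for all regions of X.

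Sites on X ranked higher than those elsewhere. The median percentile of the 17 sites on X was 53.9 in the combined list, against 36.6 for the 138 sites elsewhere, and 40.7 against 18.5 in replicate 1 and 56.4 against 24.5 in replicate 2. Of the 17, 11 were in the upper 50% of the combined list, against 41 of 138. All enriched regions of X also ranked high, with a median of 55.3 in the combined list where the other chromosomes had 39.3 to 54.5. In the combined list the median of the sites was below that of all regions on each chromosome, by 1.43 percentile points on X and by 5.69 to 13.5 elsewhere. On X the sites stood at 40.7 against 60.5 for all regions in replicate 1, and at 56.4 against 57.7 in replicate 2. On chromosome 4 the order was reversed in replicate 1 (27.4 for the sites, 15.5 for all regions) but not in replicate 2 (19.7 and 21.8). The difference between X and the other chromosomes was not tested.

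Chromosome 4, the dot chromosome, is rich in repeats and in the heterochromatin protein HP1a. Its 8 sites were 17.0% of its 47 enriched regions, where sites were 1.56% of the regions on the large arms. Before any overlap with a replicate was asked for, 19 of the 47 were already narrow and isolated, against 582 of 9419 on the large arms. The share of sites therefore follows in part from how many regions met the limits of width and distance. Their scores ran from 0.217 to 0.868 in the combined list; replicate 1 gave 0.297 to 1.16, and replicate 2 gave 0.224 to 0.886. The run named above held 4 of them: 4:435479-437647, 4:446354-448498, 4:500992-502822 and 4:508657-510978, with scores of 0.725, 0.368, 0.217 and 0.379. The other sites were 4:676747-679637 (0.362), 4:885447-887412 (0.236) and the 2 named above. In replicate 1 the partner of 4:500992-502822 was 3758 bases wide, the widest partner of any site, and had a neighbour 981 bases away. When neighbours were counted from all 3 lists, 5 of the 8 remained isolated, and without the requirement on replicate 2 there were 15 sites on chromosome 4.

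Along the large arms the sites were thinly spread. The 2 Mb nearest the centromere end of each arm held 8 sites in all (0.800 per Mb, Poisson interval 0.345 to 1.58), the 2 Mb nearest the telomere end also held 8, and the rest held 131 (1.32 per Mb, interval 1.11 to 1.57). The intervals overlap. X and 3L had 0 sites in their 2 Mb nearest the centromere, 2L had 3, 2R had 3 and 3R had 2. X also had 0 in its 2 Mb nearest the telomere. Of 124 windows of up to 1 Mb on the 6 chromosomes, 37 had no site, 46 had 1, 24 had 2 and 17 had more, up to 6 in 4:1-1000000. The last window of each chromosome was shorter than 1 Mb, and those of X, 2L, 2R and 3L were among the 37.

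Regions lay close to the limits of the rule on either side. The widest sites were 3L:20095642-20098629 (2988 bases), X:8866778-8869706 (2929) and 3L:6934798-6937717 (2920). The next regions past the limit that met the other criteria were 3R:18822397-18825414 (3018 bases), 3L:11687004-11690040 (3037) and 3R:11311409-11314449 (3041). Scores were 0.283, 0.504 and 0.373 inside, and 0.450, 0.839 and 0.778 outside. The least isolated sites had a neighbour 5004 bases (X:11622310-11624806), 5017 bases (X:14474632-14477343) and 5074 bases (3L:6934798-6937717) away. Just outside were 3R:25417571-25420522 (4980 bases), 3L:8429409-8431560 (4953) and 3R:22644737-22647329 (4947). There were 12 sites from 2800 to under 3000 bases and 15 regions from 3000 to under 3200, and 13 sites at 5000 to under 5500 bases from a neighbour and 18 regions at 4500 to under 5000.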

How the data were processed

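Coordinates are those of FlyBase release 5, per the file headers. The submitters' processing notes name the aligner as Bowtie (0.12.7); for region calling and the making of the combined list the sources used here give no method. The deposited score, 1 value per region, is the authors' own and of no stated scale, so it was used within a list, as deposited or as a percentile among that list's enriched regions. The members and measures were chosen with earlier results of these data known.

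Depleted regions were set aside. Distances are the bases between neighbouring regions of a list, and a partner is the replicate region that overlaps a site. Shares carry 95% Wilson intervals and densities 95% exact Poisson intervals. Centromere ends were taken at high coordinates on X, 2L and 3L and at low coordinates on 2R and 3R. Depth is unknown, and with 2 ChIP samples in 1 group no test over samples was made. Regions were named by rule: the 10 highest-scoring and the 10 most isolated sites, the best site of each chromosome, and the 3 regions just inside and outside each limit. Those of runs, of chromosome 4 or in the upper 50% of all lists were chosen after their values were seen. Alternatives changed the width limit, distance, overlap, neighbours, merging, score and list of origin. On simulated lists, with regions built to meet or break the rule, the selection found 100% of planted sites in 5 trials, with 0 false ones. This checks the code alone and gives no error rate for the sites. The software was SciPy 1.17.1, pandas 2.3.3, NumPy 2.4.6 and Matplotlib 3.10.9 under Python 3.11.15. A gene table of release 6 was left unused, since its coordinates are not those of the lists.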

Additional observations from a re-analysis of the deposited data

Results flagged for a closer look

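Outside the 6 chromosomes, on heterochromatic and unplaced sequences of the same genome release, 8 regions met the remaining criteria. They are given here because no comparison of the report uses them. These sequences held 35 enriched regions in the combined list, of which 20 were narrow and isolated. The 8 comprised 3 on U, 2 on 3LHet, 2 on XHet and 1 on YHet. Of the 8, 3 stood above the 90th percentile of the combined list, where 0 of the 155 sites did: U:8907462-8909643 (score 1.23), U:7541949-7544308 (1.19) and YHet:305599-307748 (1.02). Replicate 1 covered 94.8%, 94.7% and 82.9% of these, and replicate 2 covered 99.4%, 98.9% and 100%. Neighbours on such short or joined sequences are not comparable with those on the arms.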

How the results depend on the processing

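Reads behind the lists are not counted in the files, so depth limits could not be computed. No paired analysis was possible because only the ChIP samples have region lists and no test was made. Of 84 values under 14 alternatives for 6 results, 44 stayed within 1.5 times (counts and densities), the 95% interval of the median, or 1 SD between replicates; the cause of the other changes was not tested, apart from those the alternative itself sets. Counts and densities per Mb on the large arms were 50 and 0.403 with a width limit of 2000 bases, 272 and 2.19 with 5000, 298 and 2.42 with a distance of 2500 bases, 75 and 0.605 with 10000, and 35 and 0.286 for the higher-scoring 50% of each list. They were 458 and 3.79 when the rule started from the replicate 1 list and 336 and 2.72 from the replicate 2 list, and 141 and 139 of the 155 sites were met by these. Leaving out 1 replicate gave 229 to 399 sites, 1.80 to 3.26 per Mb, median scores of 0.343 to 0.350, widths of 1848 to 2022 bases, distances of 9025 to 10051 bases and shares of 86.0 to 91.0% for narrow and isolated partners. Median scores were 0.283 (limit of 2000), 0.472 (5000), 0.724 (higher-scoring 50%), 0.526 (from replicate 1) and 0.454 (from replicate 2), and median widths in the same order were 1895, 2742, 2625, 1972.5 and 1960 bases. The scores from replicate 1 and replicate 2 are those of their own lists. They count among the changed values, but their difference from the combined score cannot be read. The median distance was 5167 bases with the limit of 2500, 16935 with 10000 and 12483 for the higher-scoring 50%. Shares with a narrow and isolated partner were 86.8% (limit of 5000), 91.9% (distance of 2500), 97.7% (neighbours from all 3 lists, 129 sites), 87.1% (higher-scoring 50%), 39.1% (from replicate 1) and 53.3% (from replicate 2). Requiring 50% of the site to be covered left 150 sites, 50% of both left 149, merging gave 160, and depleted regions as neighbours left 155.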
